A study of Caenorhabditis elegans with 2 samples.

Results

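The CREB and ATF factors of Caenorhabditis elegans were examined as genes bound by 1 of their own family, CRH-2. The genes were chosen by 8 names (crh-1, crh-2, let-607, atf-2, atf-4, atf-5, atf-7 and atf-8). The choice was by family and not by a threshold on binding, made with earlier results of these data known. Of these names, 7 were found by symbol among the 19973 protein-coding genes on nuclear chromosomes of the WBcel235 (ce11) annotation. The name atf-5 matched no symbol or synonym there, so no gene was analysed under it. The sources used here do not tell whether atf-5 is another name of a gene already listed. The assay was chromatin immunoprecipitation followed by sequencing (ChIP-seq), which recovers the DNA attached to a protein, and the material was whole larvae of the L2 stage and of both sexes. All larvae were of strain OP425, genotype unc-119(tm4063) III; wgIs425, in which a stably expressed transgene makes CRH-2 (C27D6.4) with GFP-FLAG at its C-terminal end. There was 1 group with 2 biological replicates, and the labels do not say whether they were separate cultures. No control library or other condition was analysed here, so the data are levels of 1 condition and allow no test between groups.

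CREB and ATF proteins are basic leucine zipper (bZIP) factors: the zipper joins a pair of monomers, and the adjoining basic stretches grip the DNA. The classical target is the palindromic cAMP response element TGACGTCA, and many members also bind around its core, TGACG. CREB proteins are switched on by kinases that answer to cAMP or calcium, ATF4 proteins rise when translation is restrained under stress, and in mammals CREB3 proteins are held in the membrane of the endoplasmic reticulum and cut free. Genes of such factors are known to be controlled in part by their own family.

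CRH-2 regions lay at most of these genes, and the strongest stood at crh-1, let-607 and atf-4. The authors deposited a list of 5735 peaks kept by the irreproducible discovery rate, called replicated peaks here. They are the strongest regions of a list of 30000 regions called on the pooled replicates. A list of 30000 regions was also deposited for each replicate. Of the 5735 peaks, 5704 overlapped a region in the lists of both replicates. A replicated peak overlapped the stretch from 2000 bp upstream to the gene end in 5 of the 7 genes (crh-1, let-607, atf-4, atf-7 and atf-8), against 27.9% of all protein-coding genes. A summit, the highest point of a peak, fell in a promoter window, reaching from 1000 bp before to 250 bp past an annotated transcript start (5′ end), in 4 of the 7 (crh-1, let-607, atf-4 and atf-7), against 19.3%. The word promoter here means such a window at an annotated 5′ end. Where transcription starts was not measured. Long genes offer more room for a peak: the searched window spanned 38.2 kb at crh-1, 13.5 kb at let-607, 10.5 kb at crh-2 and 9.42 kb at atf-7, and 3.66 to 3.96 kb at the other 3, with a median of 4.03 kb over all genes. The part of gene length in these counts was not tested.

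In all, 12 replicated peaks lay at the 5 genes, numbered here within each gene by strength. Ranks by pooled signal ran from 251 to 4746 of 5735, and 9 of the 12 were among the 2867 stronger peaks. The pooled signal is the authors' own score of a region; it ran from 62.3 to 1625 over all replicated peaks, with a median of 103. To set the replicates on 1 scale, the strongest overlapping region of each replicate was taken as a multiple of the median signal of that replicate at the replicated peaks, which was 56.2 in replicate 1 and 50.9 in replicate 2. This relative signal is 1 for a typical peak. The replicates differed by less than 2-fold at 11 of the 12 peaks, as did 94.4% of the 5704 peaks measured in both. Replicate 1 was higher at 6 of the 12, so neither replicate stood above the other at these genes. Summits of the replicates lay 0 to 122 bp from the pooled summit.

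**Figure D1:**
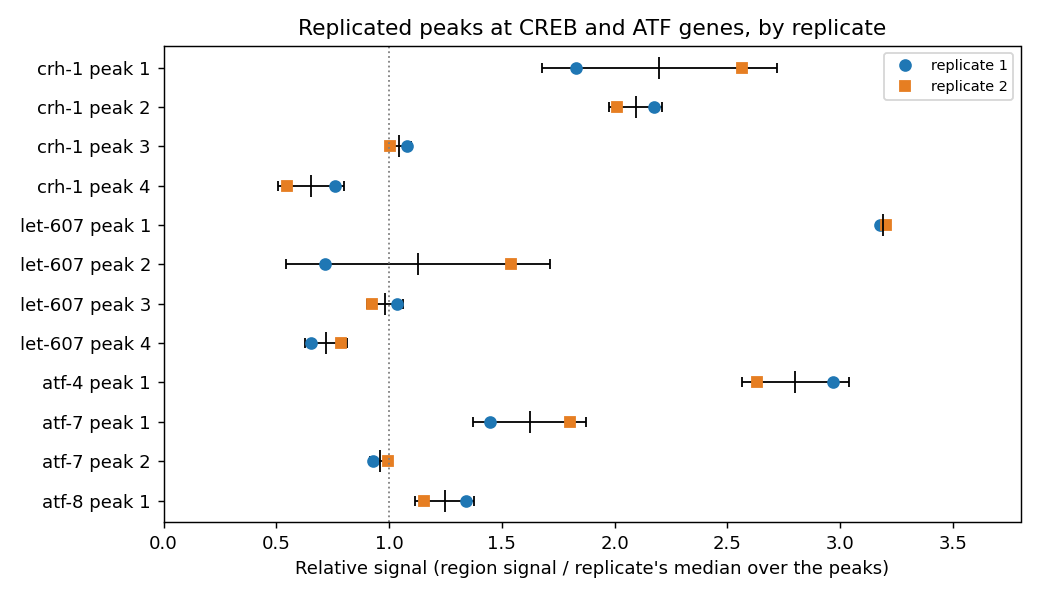
Relative signal (a region's signal divided by the median of its replicate, no unit) of the 12 replicated peaks at CREB and ATF genes. Circles are replicate 1, squares replicate 2, and the black tick and bar the mean and SD of both; the dotted line at 1 is a typical peak. The strongest peaks of let-607, atf-4 and crh-1 lie at 3.19, 2.80 and 2.20, and let-607 peak 2 has the widest gap, from 0.715 to 1.54.

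crh-1 encodes the worm's CREB proper, the factor that calcium and cAMP kinases act on and that is required for long-term memory. The gene (WBGene00000793, chrIII:11657767-11693981, plus strand) has 7 transcripts, each with a 5′ end of its own, and 99.9% of protein-coding genes are shorter. CRH-2 lay at both outer promoters of crh-1, the first and the last. Peak 1 (chrIII:11689296-11689671, rank 630, pooled signal 232) had its summit in an intron, 28 bp upstream of the last 5′ end and 31717 bp from the gene start. Its signal was 103 in replicate 1 (rank 947) and 131 in replicate 2 (rank 432), a relative signal of 1.83 and 2.57 and a mean of 2.20 ± 0.521 (SD, n = 2). The transcript that starts there is the shortest, with 189 coding codons against 306 to 428 in the others, and it ends at the same last coding base. Peak 2 (chrIII:11657215-11657590, rank 677, pooled signal 226) stood 364 bp upstream of the first 5′ end. Its signal was 122 in replicate 1 and 102 in replicate 2, a relative signal of 2.18 and 2.01 (2.09 ± 0.118, SD, n = 2). The order of the outer promoters differed between replicates: replicate 1 was stronger at the first and replicate 2 at the last, and their means differ by less than the spread at peak 1.

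Between them, crh-1 held weaker peaks in introns and no peak at the middle promoters. Peak 3 (chrIII:11684771-11685146, rank 2528, pooled signal 112) lay 1997 bp downstream of the sixth 5′ end, with relative signals of 1.08 and 1.01 in replicates 1 and 2 (1.04 ± 0.0523, SD, n = 2). Peak 4 (chrIII:11663395-11663770, rank 4746, pooled signal 72.3) lay 5816 bp downstream of the first 5′ end, at 0.758 and 0.549 (0.654 ± 0.148, SD, n = 2). The 5 middle 5′ ends, which start transcripts of 306 to 428 codons, had no replicated summit in their promoter windows. In the windows of 4 of them the best pooled region ranked 23468 with a signal of 19.6, and at the sixth 5′ end no region of any list had its summit in the window.

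The DNA under 3 of these peaks is shown because the peaks at both outer promoters and peak 3, which lies away from any promoter window, differ in the CREB-type letters they hold. All are WBcel235 reference sequence from 5′ to 3′ on the strand of the gene, centred on the pooled summit; capitals mark TGACGTCA or its core TGACG on either strand, the E-box (CACGTG), and the repeat GAGAGAGA, which reads TCTCTCTC when it lies on the other strand.
crh-1 peak 1 (chrIII:11689434-11689534): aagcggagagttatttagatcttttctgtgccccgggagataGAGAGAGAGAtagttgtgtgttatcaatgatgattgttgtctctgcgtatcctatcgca
crh-1 peak 2 (chrIII:11657303-11657503): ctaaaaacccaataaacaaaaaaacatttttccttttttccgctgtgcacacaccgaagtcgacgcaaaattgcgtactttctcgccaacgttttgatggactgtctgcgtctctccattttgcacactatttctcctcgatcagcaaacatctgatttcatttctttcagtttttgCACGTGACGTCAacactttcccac
crh-1 peak 3 (chrIII:11684859-11685059): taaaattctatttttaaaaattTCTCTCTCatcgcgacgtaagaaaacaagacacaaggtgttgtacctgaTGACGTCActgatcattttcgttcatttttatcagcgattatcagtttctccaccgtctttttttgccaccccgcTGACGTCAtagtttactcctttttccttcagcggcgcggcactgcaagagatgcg
The stretch shown reaches 50 bp to each side of the summit at peak 1 and 100 bp at peaks 2 and 3. At peak 1 the capitals are a GA repeat centred 2.5 to 4.5 bp from the summit, and no TGACG lay within 100 bp. At peak 2 the cAMP response element overlaps an E-box, but 84.5 bp from the summit, in a run that reads CACGTGACGTCA. Peak 3 holds the palindrome at 2 places, 25.5 bp and 49.5 bp from the summit on either side.

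atf-7 encodes a factor that acts below a MAP kinase cascade in the worm's intestinal immune response. Its replicated promoter peak lay at an internal promoter, and its outer promoters had weaker regions outside the replicated list. The gene (WBGene00000223, chrIII:4491627-4499045, minus strand) has 8 transcripts from 6 different 5′ ends, of which 3 lie within the first 486 bp and 3 4595 to 4951 bp downstream. Peak 1 (chrIII:4494571-4494946, rank 1295, pooled signal 164) had its summit in an intron of the longer transcripts, 309 bp upstream of the 5′ end at 4494450. Its signal was 81.2 in replicate 1 (rank 1499) and 91.7 in replicate 2 (rank 987), a relative signal of 1.45 and 1.80 (1.62 ± 0.252, SD, n = 2). In replicate 1 this peak was split into 2 regions, and the stronger is given. The transcripts that start below it encode 509 or 373 codons, against 373 to 460 from the outer ends. Peak 2 (chrIII:4496087-4496462, rank 3396, pooled signal 91.6) lay further up in the intron, 1825 bp from that 5′ end, at 0.928 and 0.994 (0.961 ± 0.0466, SD, n = 2). In the promoter windows of the outer 5′ ends the best pooled region ranked 20636 with a signal of 21.6. Just past the window, 318 bp downstream of the outer 5′ end at 4498559, a pooled region ranked 7525 with a signal of 49.3. Replicate 2 listed it at rank 3869 with a signal of 41.4, and replicate 1 listed no region there.

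Both atf-7 peaks hold a CREB-type sequence, shown here on the gene's strand with the same capitals.
atf-7 peak 1 (chrIII:4494659-4494859): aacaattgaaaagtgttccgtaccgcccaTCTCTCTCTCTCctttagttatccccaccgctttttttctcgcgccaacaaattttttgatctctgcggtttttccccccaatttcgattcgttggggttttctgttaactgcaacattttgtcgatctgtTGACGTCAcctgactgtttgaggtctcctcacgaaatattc
atf-7 peak 2 (chrIII:4496225-4496325): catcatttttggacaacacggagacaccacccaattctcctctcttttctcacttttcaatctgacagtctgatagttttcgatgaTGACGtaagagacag
The palindrome of peak 1 is centred 63.5 bp from the summit, and a GA repeat lies on the opposite side. Both lie outside the 50 bp searched for the main count below. Peak 2 has the core alone, within 50 bp. Of all replicated summits, 21.5% hold TGACG within 50 bp and 33.0% within 100 bp, where 2.06% hold the palindrome.

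The gene next upstream of atf-7 on the same strand, cct-5 (a chaperonin subunit), ends 142 bp before it. It had a promoter peak of its own at rank 1713 (pooled signal 142), 465 bp upstream of its 5′ end, where the relative signal averaged 1.37 ± 0.237 (SD, n = 2).

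atf-4 is the worm ATF4, whose protein is made when stress kinases restrain translation. The gene (WBGene00000221, chrX:14809156-14810810, minus strand) is short, with 208 codons and 5′ ends only 7 bp apart, and its promoter carried one of the strongest peaks among these genes. Peak 1 (chrX:14810930-14811053, rank 360, pooled signal 300) stood 169 bp upstream of the gene. The signal was 167 in replicate 1 (rank 328) and 134 in replicate 2 (rank 411), a relative signal of 2.97 and 2.63 (2.80 ± 0.238, SD, n = 2). The region is 124 bp wide, against 376 bp for the other 11. WBGene00303075 (chrX:14810643-14810804) lies on the same strand inside the span of atf-4 and starts between the annotated 5′ ends of atf-4. Its 5′ end is 175 bp from the summit, so the peak cannot be assigned to 1 of the 2 by position. The sequence at the summit holds a single core, 27 bp from it.
atf-4 peak 1 (chrX:14810929-14811029): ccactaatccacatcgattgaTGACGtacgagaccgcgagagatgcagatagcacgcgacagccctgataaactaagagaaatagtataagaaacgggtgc
Like atf-7 peak 2, it holds the core without the full palindrome.

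**Figure D2:**
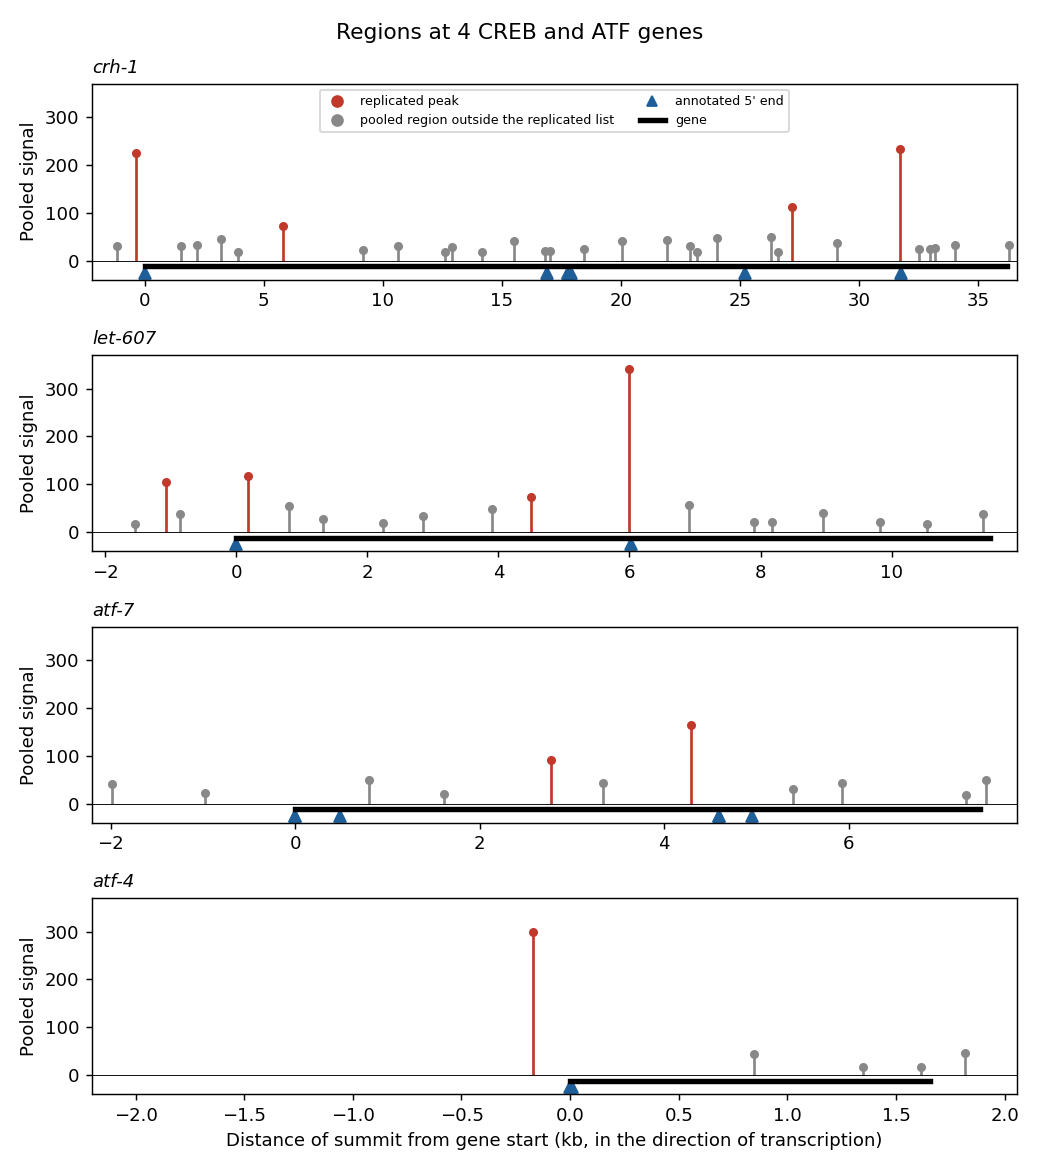
Pooled signal (authors' score, no unit) of every region of the pooled list at crh-1, let-607, atf-7 and atf-4, by the distance of its summit from the gene start in kb. Red stems are replicated peaks, grey stems other pooled regions, triangles annotated 5′ ends and black bars the genes. The tallest stem of crh-1 (232), let-607 (340) and atf-7 (164) stands at an internal 5′ end, and that of atf-4 (300) at the gene start.

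let-607, a member of the CREB3 group, held the strongest peak of all these genes, at an internal 5′ end. The gene (WBGene00002783, chrI:6574004-6585510, plus strand) has 2 transcripts, both of 690 codons, that start 6018 bp apart. Peak 1 (chrI:6579804-6580179, rank 251, pooled signal 340) had its summit 30 bp upstream of the internal 5′ end. Its signal was 179 in replicate 1 (rank 277) and 163 in replicate 2 (rank 246), which gave a relative signal of 3.18 and 3.20 (3.19 ± 0.0178, SD, n = 2). No other peak at these genes had so small a spread. The internal 5′ end is an Ensembl transcript start that is not among the RefSeq mRNA starts, so it rests on 1 of the 2 annotations.

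At the first promoter of let-607 the peak was weaker and the replicates differed. Peak 2 (chrI:6573990-6574365, rank 2321, pooled signal 118) lay in an intron 174 bp downstream of the first 5′ end. It had a signal of 40.2 in replicate 1 (rank 4573) and 78.4 in replicate 2 (rank 1338), a relative signal of 0.715 and 1.54 (1.13 ± 0.583, SD, n = 2). This was the only 1 of the 12 peaks past 2-fold between replicates. The replicates also differed just past the promoter window. Replicate 1 listed a separate region 731 bp downstream of the first 5′ end, at rank 3530 with a signal of 48.1, above its region at peak 2. In replicate 2 a region 809 bp downstream ranked 9266 with a signal of 21.5, below its region at peak 2. Peak 3 (chrI:6572745-6573120, rank 2764, pooled signal 105), 1071 bp upstream of the gene, had relative signals of 1.04 and 0.924 (0.980 ± 0.0792, SD, n = 2). Peak 4 (chrI:6578306-6578681, rank 4703, pooled signal 72.8), in the intron, had 0.656 and 0.786 (0.721 ± 0.0922, SD, n = 2). Peak 3 lies between let-607 and ipgm-1, a phosphoglycerate mutase gene that ends 1403 bp upstream of let-607 on the same strand and has its own promoter peak at rank 1426.

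atf-8 (WBGene00017535, chrV:6105607-6107530, plus strand, 241 codons) met the window rule only through a peak beyond its end. The peak (chrV:6107477-6107852, rank 1863, pooled signal 135) overlaps the last bases of the gene, but its summit lies 2058 bp from the gene start, outside the gene and 163 bp upstream of the next gene on the same strand, cwf-19L1. Its signal was 75.3 in replicate 1 (rank 1728) and 58.8 in replicate 2 (rank 2219), a relative signal of 1.34 and 1.15 (1.25 ± 0.131, SD, n = 2). At the promoter of atf-8 itself, only replicate 1 listed a region, at rank 25369 with a signal of 10.5, 175 bp upstream. By summit, then, the peak is at the promoter of cwf-19L1 and not at that of atf-8.

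atf-2 (WBGene00000220, chrII:8751986-8753940, plus strand, 401 codons) had no replicated peak. The pooled list held 1 region in its window, 506 bp upstream of the 5′ end, at rank 24515 with a signal of 18.9. Replicate 2 listed it at rank 20769 with a signal of 11.8, and replicate 1 listed no region there. The lowest pooled signal of a replicated peak was 62.3, so the atf-2 promoter lay far below that limit in the pooled data.

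crh-2, the gene of the precipitated factor, had no region in any of the 4 lists. The gene (WBGene00016162, chrII:5179026-5187569, minus strand) has 4 5′ ends that start transcripts of 219 to 351 codons, and none had a region of any list in its promoter window. The nearest replicated summits were 40375 bp upstream of the first 5′ end (rank 3509) and 38800 bp downstream of the last (rank 2602). A gene with no pooled region in its window is common, since 39.7% of protein-coding genes have none, but less so among long genes: of the 1369 genes at least as long as crh-2, 147 (10.7%) have none, and 718 (52.4%) have no replicated peak.

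The empty stretch around crh-2 reached well beyond the gene in every list. It spanned 65.8 kb in the pooled list, the length of rank 48 among 26529 stretches between neighbouring regions, and 59.8 kb in replicate 1 (rank 46 of 26739) and 62.7 kb in replicate 2 (rank 43 of 26576). Among the replicated peaks it spanned 85.3 kb, rank 161 of 5615. The pooled stretch covers 20 protein-coding genes, among them the chemoreceptor genes srb-1, srb-3, srb-5, srb-12 and srb-13 and the major sperm protein genes msp-45, msp-49 and msp-50. In all, 1080 protein-coding genes (5.41%) lie in pooled stretches at least as long. The labels do not say how much of the crh-2 locus the transgene carries; its part in the absence of regions was not tested.

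**Figure D3:**
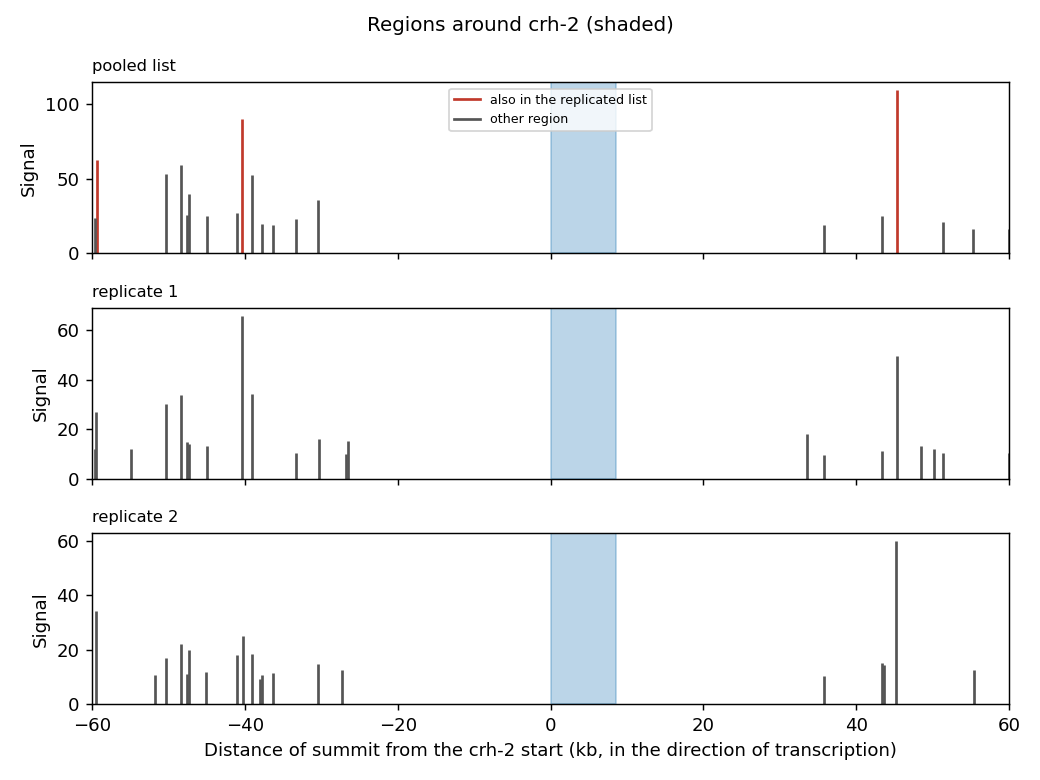
Signal (authors' score, no unit) of the regions within 60 kb of the crh-2 start in the pooled list and in each replicate, by distance from the gene start in kb. The shaded band is crh-2, red stems in the pooled panel are replicated peaks, and grey stems are all other regions. No stem stands in the band, and the empty stretch spans 65.8 kb in the pooled list, 59.8 kb in replicate 1 and 62.7 kb in replicate 2.

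Of the 7 genes, 4 have 5′ ends at least 1000 bp apart, and 3 of these (crh-1, let-607 and atf-7) had a promoter summit. Such 5′ ends are thus present in 3 of the 4 genes with a promoter summit. Among all protein-coding genes with a promoter summit they are present in 709 of 3857. More 5′ ends give more promoter windows, and the part of this was not tested. In crh-1, let-607 and atf-7 the strongest promoter peak lay at an internal 5′ end, at least 1000 bp below the first. This held for 37.1% of the 709 such genes with a promoter summit. With 3 genes this is a description only. It rested on replicate 2 at crh-1, where replicate 1 alone put the first promoter ahead and left 2 genes, and on the Ensembl annotation at let-607, since with RefSeq mRNA starts 2 genes also remained. The genes crh-1 and let-607 each had 2 promoter summits, as 285 protein-coding genes (1.43%) did or exceeded, and 4 replicated peaks in their windows, a number that 109 genes (0.546%) reached. These shares are over genes of all lengths, and 99.9% and 96.2% of protein-coding genes are shorter than crh-1 and let-607. The part of length was not tested.

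A shared promoter was found once: 1 of the 6 promoter peaks (atf-4 peak 1, with WBGene00303075) lay in the window of another protein-coding gene, against 24.9% of the 3309 replicated promoter summits. That gene lies inside the span of atf-4 and starts between its 5′ ends. The peak at atf-8 would add cwf-19L1, but is in no promoter window of atf-8. By position, 8 of the 12 summits lay in introns of their gene, 4 outside it and 0 in exons. The shares of all replicated summits in these classes are not given here, and the searched stretch includes the whole gene. The counts are therefore a description only.

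Among the 3823 protein-coding genes with a promoter peak measured in both replicates, the median relative signal of the strongest was 1.09. let-607 was above 93.7% of them, atf-4 above 90.6%, crh-1 above 84.6% and atf-7 above 72%. Pooled regions, replicated peaks included, were also dense at these 4 genes. The windows of all 7 held 67 pooled regions, 55 of them outside the replicated list, and 61 regions in replicate 1 and 68 in replicate 2. Per kb of window, there were 1.37 pooled regions at atf-4, 1.33 at let-607, 1.17 at atf-7 and 0.811 at crh-1. At atf-8 and atf-2 there were 0.255 and 0.253, near the median of 0.233 over all genes, and 0 at crh-2. The 4 genes are those with a promoter peak, whereas the median takes in the 39.7% of genes without a pooled region.

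The count of CREB-type sequences at the 12 summits depended on the distance searched. Within 50 bp on either strand, TGACG occurred at 4 of the 12 (crh-1 peak 3, let-607 peak 2, atf-4 peak 1 and atf-7 peak 2), against 21.5% of all replicated summits and 9.47% of promoter stretches of the same length, taken up to the first base of each gene. Within 25 bp TGACG occurred at 1 of the 12 against 12.8% of summits, and within 100 bp at 6 against 33.0%. With 12 summits these counts are too small to be placed above or below the background. The count of TGACG includes every TGACGTCA, TGACGTGG and TGACGTGT. The palindrome TGACGTCA occurred at 1 (crh-1 peak 3), against 1.29% of summits and 0.305% of promoters, and within 100 bp at 3 (crh-1 peaks 2 and 3 and atf-7 peak 1), against 2.06% of summits. GAGAGAGA occurred within 50 bp at 2 (crh-1 peaks 1 and 4), against 6.43% of summits and 1.37% of promoters. The CREB3 and XBP1 types TGACGTGG and TGACGTGT occurred at 0 of the 12, against 2.37% and 1.20% of summits. None of TTACGTAA (PAR type), TTGCGCAA (C/EBP type), TGATGCAA (C/EBP-ATF composite), TGAGTCA with TGACTCA (AP-1) and CACGTG was found within 50 bp. They are also uncommon over all replicated summits, at 0.105%, 0.366%, 0.680%, 1.10% and 7.36% in that order. In all, 6 of the 12 held none of the sequences searched within 50 bp: the strongest of all, let-607 peak 1, with let-607 peaks 3 and 4, crh-1 peak 2, atf-7 peak 1 and the peak at atf-8. The share of all replicated summits that hold none is not given here. Summits were of ordinary base composition, with a median GC content of 43.1% (range 32.7% to 47.5%) against 42.6% over all replicated summits. These matches describe letters, not sites of binding.

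Most of the other bZIP genes also carried a peak. A promoter summit was present at 15 of 22 listed (68.2%), against the 19.3% of all genes given above. The strongest was at xbp-1, a factor of the unfolded protein response, with relative signals of 8.23 and 6.78 (7.50 ± 1.03, SD, n = 2) at rank 23, above every CREB and ATF gene in both replicates. zip-2, an immune response factor, had 2.62 ± 0.245 and cebp-1, a C/EBP factor, 2.38 ± 0.256 (SD, n = 2). jun-1, an AP-1 subunit, had 2.16 ± 0.261 and atf-6, a sensor of endoplasmic reticulum stress, 1.80 ± 0.186 (SD, n = 2). These 4 lie between atf-7 and atf-4 in mean relative signal, and of the 5 named only xbp-1 lies above let-607. The 5 named are the strongest. Over the 15 the median relative signal of the strongest promoter peak was 1.51, from 0.642 to 7.50.

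Genes listed as acting on CREB or ATF factors in worm or mammal had a promoter summit at 21 of 31 (67.7%), against 19.3% of all protein-coding genes. The list includes genes that act on another listed gene, such as vhp-1, and action on the worm factors was not tested. The strongest was cbp-1, which encodes the CBP acetyltransferase that CREB recruits, at rank 58 with relative signals of 6.39 and 4.57 (5.48 ± 1.29, SD, n = 2). egl-30, a Gq subunit, had 4.05 ± 1.12 (SD, n = 2) at a promoter peak shared with C53H9.4. akt-2, a kinase of insulin signalling, had 2.87 ± 0.519, and the stress kinase gene kgb-1 had 2.35 ± 0.215 at a peak shared with T07A9.12 (SD, n = 2). vhp-1, a phosphatase that acts on KGB-1, had 2.25 ± 0.199 (SD, n = 2). These are the 5 strongest. Over the 21 the median relative signal of the strongest promoter peak was 1.35, from 0.573 to 5.48. The median over all protein-coding genes with a promoter peak measured in both replicates was 1.09. crtc-1, the coactivator that works with CRH-1, had no promoter summit; it is named here after its value was seen. Both lists were drawn up by function with earlier results of these data known, and the part of gene length and of how many 5′ ends a gene has was not tested.

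**Figure D4:**
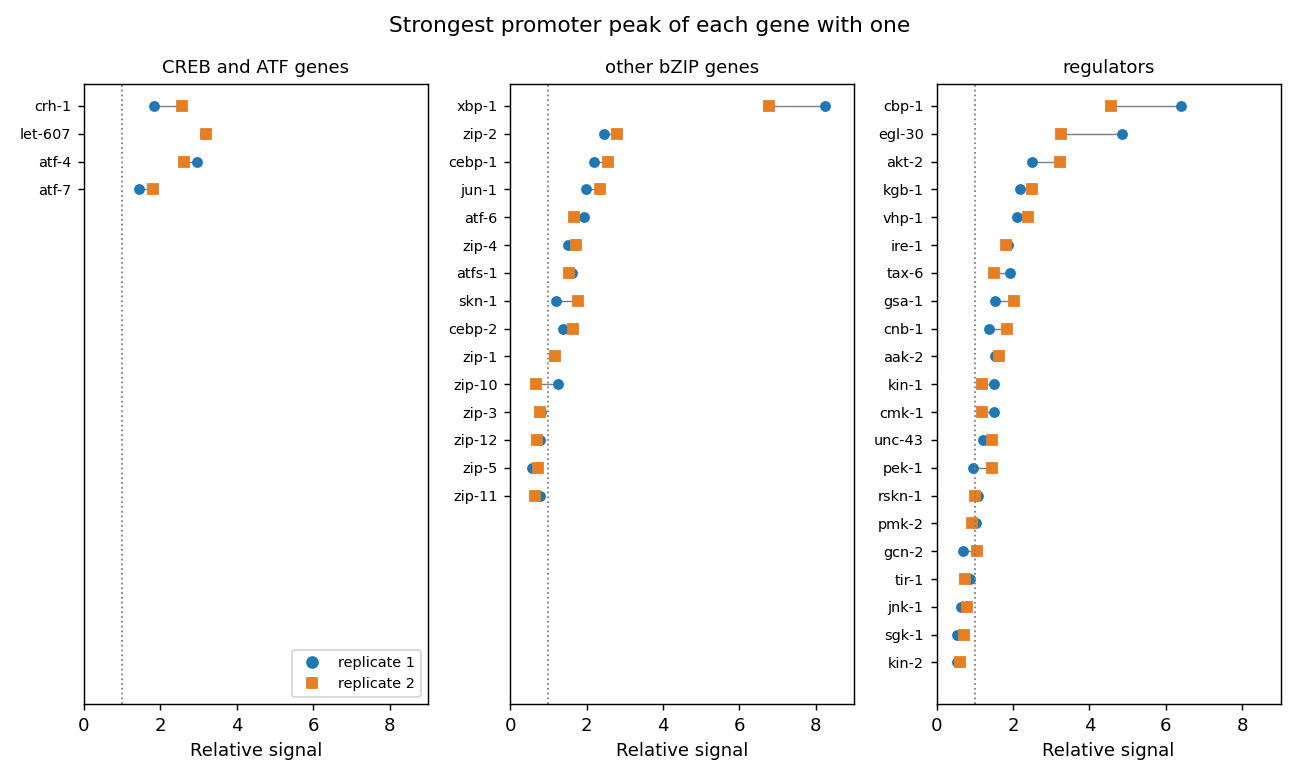
Relative signal (no unit) of the strongest promoter peak in replicate 1 (circles) and replicate 2 (squares) for the CREB and ATF genes, the other bZIP genes and the regulators that have one, in order of pooled signal within the last 2 panels. The dotted line at 1 is a typical peak. Of the CREB and ATF genes let-607 is highest at 3.19, while xbp-1 reaches 7.50 and cbp-1 5.48.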

How the data were processed

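The authors deposited ChIP-seq regions of CRH-2 in narrowPeak form on the ce11 build. They were an optimal list kept by the irreproducible discovery rate (called replicated peaks here), regions called on pooled reads, and regions of each of 2 replicates. Copies on ce10 were not used. The signal (column 7) is the deposited score of a region, whose scale is not stated, so ranks and signals are compared within a list. The deposited −log10 q-value (column 9) and the deposited summit offset (column 10) are the authors' own; q-values set no threshold here. Aligner and peak caller were not given in the sources used here. The files give no read counts, so depth and its counting error are unknown.

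Summits were placed at column 2 plus column 10, written 1-based, and joined to Ensembl release 115 genes on WBcel235 with Python 3.11.15 and numpy 2.4.6 (matplotlib 3.10.9 for plots); an overlap of 1 bp sufficed. Functions were tested on planted summits. Promoter windows of every protein-coding transcript start were used. SDs are over the replicates. All members are named, with genes sharing their promoter peaks, flanking genes of a described peak and the 5 strongest of each other list. The members and lists were chosen with earlier results of these data known. With 1 group, no test between groups was possible. Alternatives covered windows, lists, replicates alone, signal scale and sequence windows.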

Additional observations from a re-analysis of the deposited data

How the results depend on the processing

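Of 61 alternatives over 13 results, 54 stayed within 1.5 times the main count or, for a signal, within the SD between replicates. For the signal of a single replicate the SD limit is met by construction, since each of 2 values lies within their SD of the mean. Those alternatives are counted among the 54 but do not test stability. Counts still shifted inside the limit of 1.5 times: 12 peaks became 17 from 5000 bp upstream, 15 other bZIP genes became 10 with the stronger peaks alone, and 21 regulators became 15 with the gene start alone. The number of replicated peaks at the CREB and ATF genes, 12, became 67 when the whole pooled list was used, which is longer by construction. The number of summits with a CREB or ATF type sequence, 4 within 50 bp, fell to 1 within 25 bp. Of all summits, 21.5% hold TGACG within 50 bp and 12.8% within 25 bp, and 12 summits are too few to place either count above or below its share. Dividing signals by the mean of each replicate in place of the median moved the strongest peak of each of the 5 genes, to 0.941 at the lowest and 2.41 at the highest, all by the change of scale. With a single replicate and as many of its strongest regions, 5 genes had a peak and 4 a promoter summit from either replicate, and 15 regions lay in the windows. Strongest peaks at an internal 5′ end were 2 in replicate 1 and 3 in replicate 2; this comparison, the RefSeq starts and the length of the empty stretch at crh-2 were added after seeing the data. No paired analysis was possible because there is 1 group.

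Limits: there is no control library, expression measurement or read depth here; 2 replicates give a loose SD; regions far from 5′ ends, shared promoters and nested genes cannot be assigned to a target by position; and a region absent from a list of fixed length shows only that it did not rank among the strongest, not that CRH-2 was absent.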
